A study of Bos grunniens and Bos grunniens x Bos taurus with 2 samples.

Results

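In the yak testis library, 89 of 11991 cells had at least 5% of their unique molecular identifiers (UMIs, the tags that count single RNA molecules) on a pair of transcripts that the annotation leaves without a gene name. These are ENSBGRG00000020609, called the first transcript here, and ENSBGRG00000008342, called the second transcript. The 89 cells, called pair-rich cells, made up 0.742% of the yak cells (exact binomial 95% interval 0.596 to 0.913%). The series held 20921 cells in all, and 0 of 8930 cells of the other library, from a cattle-yak, met the same rule. Testicular tissue of 1 yak (*Bos grunniens*) and of 1 cattle-yak (*Bos grunniens* x *Bos taurus*), both sampled after sexual maturity and without any treatment, was frozen, dissociated with enzymes and profiled by 10× Genomics single cell RNA sequencing. The yak library held 60816600 UMIs and the cattle-yak library 43774841. Since each group was 1 library of 1 animal, no test between animals could be made. All intervals cover counting error only, and every comparison below is a description.

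Plasma cells are the end stage of the B cell lineage. They devote much of their messenger RNA to immunoglobulin heavy and light chains, and they carry an enlarged endoplasmic reticulum that folds, glycosylates and exports those chains. On the way to this stage B cells lose surface receptors such as *MS4A1* (CD20) and the B cell master regulator *PAX5*, and they gain the regulators *PRDM1*, *IRF4* and *XBP1*. In many tissues plasma cells sit scattered in connective tissue outside the epithelium.

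The pair-rich cells held 210257 UMIs of the pair, which was 39.3% of the 534766 UMIs in these cells. They contained 96.1% of all UMIs of the first transcript in the yak library (129137 of 134326) and 93.5% of those of the second (81120 of 86763). The share of the pair ran from 5.15% through a median of 27.0% to 66.1% of a cell's UMIs. In only 14 of the 89 cells did the pair exceed 50% of the UMIs, so "dominated" holds for a minority of the cells. The cell nearest above the threshold had 5.15% and the cells nearest below it had 4.98% and 4.58%. Between 1% and 5% lay 39 further cells (14 up to 2% and 25 above that). The pair-rich cells had a lower median depth than the rest, at 1537 UMIs (lowest 551, highest 29681) against 2535 in the other 11902 yak cells. Their upper quartile was higher, at 10452 against 5140 UMIs. The mitochondrial share of the pair-rich cells was lower, with a median of 4.09% against 6.75%. Both are shares of all UMIs, a scale on which the pair itself lowers the share left for other genes in the pair-rich cells. Limits on genes, UMIs and mitochondrial reads, rebuilt from the wording of the methods, kept 85 of the 89 cells and 10957 of all yak cells. The study kept fewer yak cells, so its own filter was not rebuilt exactly. The yak and cattle-yak libraries shared 24 cell barcodes, of which 0 belonged to pair-rich cells.

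**Figure D1:**
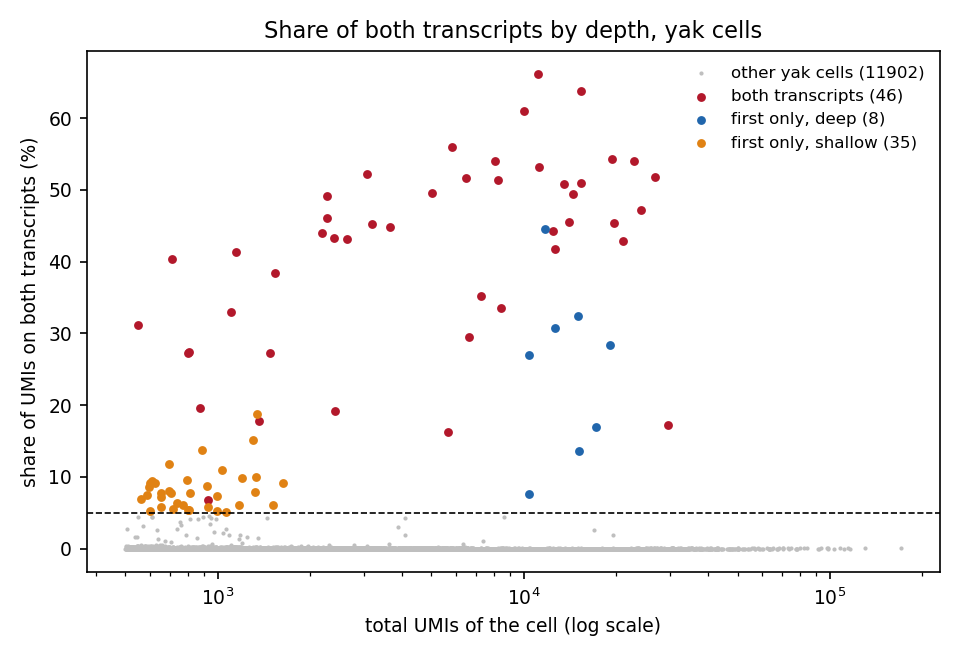
Share of UMIs on both transcripts (%) against the total UMIs of each yak cell (log scale), 1 point per cell, coloured by the 3 kinds of pair-rich cell described in the text, with the 5% threshold dashed. Nearly all of the 11902 other cells sit at or close to 0%, whereas the pair-rich cells spread from 5.15% to 66.1%.

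The pair was also found at low counts outside the pair-rich cells. Of the other 11902 cells, 2536 (21.3%) had at least 1 UMI of the first transcript and 2826 (23.7%) had at least 1 of the second. In T/NK-like cells (lymphocytes, 3788 cells, median 1931 UMIs), which should lack plasma cell transcripts, the shares were 18.6% and 18.5%. Whether these UMIs came from free RNA was not tested. The summed level outside the pair-rich cells was 86.1 CPM for the first transcript and 93.6 CPM for the second. Here and below CPM is a gene's count per 1000000 UMIs outside the pair, because the pair itself lowers the share left for every other gene in the pair-rich cells.

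The pair-rich cells fell into separate kinds by the second transcript, a division that was noticed in the data. In 46 cells the second transcript made up 25.7 to 89.2% of the pair, and in the other 43 cells it made up 0 to 3.70%, with no cell between. The 46 cells with both transcripts had a median of 6168 UMIs (551 to 29681). They held a median of 1357 UMIs of the first transcript (26 to 9243) and 1160 of the second (37 to 7164). In 16 of them the second transcript had more UMIs than the first. The 43 cells with the first transcript only were again split by depth. Of these, 8 were deep, at 10429 to 19092 UMIs, with a median of 3354 UMIs of the first transcript (785 to 5406) and 51 of the second (2 to 112). The remaining 35 were shallow, at 563 to 1636 UMIs, with a median of 56 UMIs of the first transcript (32 to 247) and 0 of the second (0 to 4). The shallow cells lay low in share, at a median of 7.80%, against 44.6% in the cells with both transcripts and 27.7% in the deep cells with the first only.

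**Figure D2:**
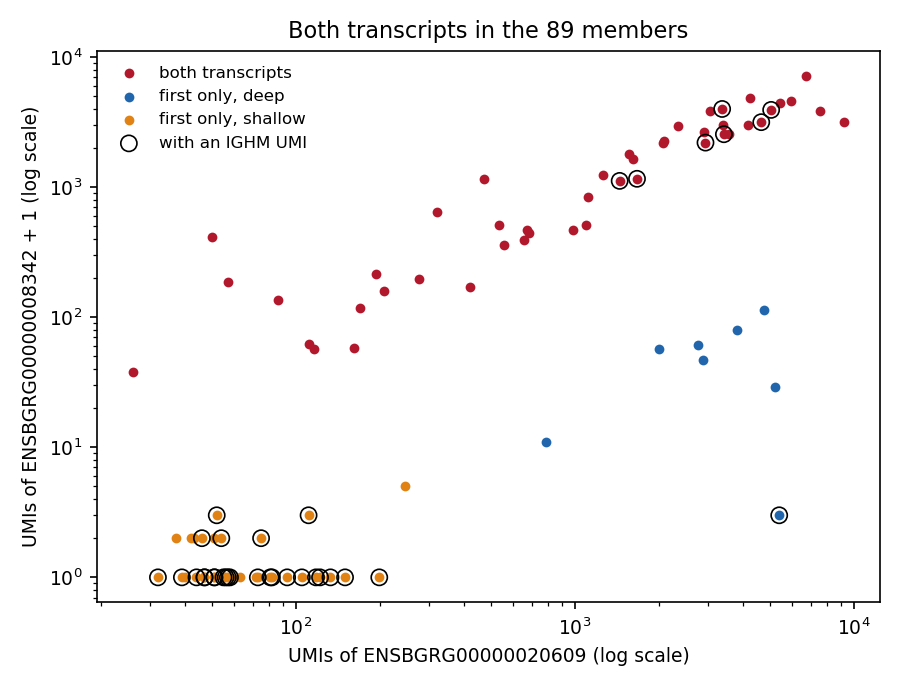
UMIs of the first transcript (x axis, log scale) and of the second transcript plus 1 (y axis, log scale) in each of the 89 pair-rich cells, with black rings around cells that had an *IGHM* UMI. The 46 cells with both transcripts lie along a band near equal counts, and the 8 deep and 35 shallow cells with the first only lie far below it.

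Against all other yak cells, 287 of 4471 compared genes were higher in the pair-rich cells (6.42%) and 1922 were lower (43.0%). A gene was called higher or lower at a log2 ratio of at least 1 or at most -1 (1 CPM added to each side) with a UMI in 10% of the cells of the higher side. The median log2 ratio of all compared genes was -0.85, so that most genes stood lower in the pair-rich cells, and the cause was not tested. Because the rule had read these same cells, such counts describe the cells and are not evidence for a difference.

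*MZB1*, an endoplasmic reticulum chaperone of B lineage cells that helps to assemble immunoglobulin, was the named gene with the highest ratio. It reached 3766 CPM in the pair-rich cells (exact Poisson 95% interval 3557 to 3983) and 0.913 CPM (0.687 to 1.19) in the other yak cells, a log2 ratio of 10.94. In total 57 of 89 pair-rich cells (64.0%) had an *MZB1* UMI, against 47 of 11902 other cells (0.395%) and 8 of 3788 T/NK-like cells (0.211%). After each cell was thinned to 1000 UMIs, which left out 31 pair-rich cells and 1476 others, the shares were 67.2% and 0.0959%. No other yak cell held more than 3 UMIs of *MZB1*, and the most in a pair-rich cell was 112. Next among the named genes came *IGHM*, the constant region of the immunoglobulin M heavy chain, at a log2 ratio of 9.11, which is described with the kinds of cell below because 1 cell held 83.5% of its UMIs. *VPREB3*, a B lineage protein that binds immunoglobulin chains inside the cell, was at 305 CPM (248 to 371) against 0.133 CPM, a log2 ratio of 8.08. It was found in 29 pair-rich cells and in all 8 deep cells with the first transcript only.

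Of the 24 plasma cell markers listed for these cells, 17 were matched by symbol, and 14 of these were higher in the pair-rich cells while 0 were lower (6.42% and 43.0% of all compared genes). Their summed level was 7205 CPM against 362 CPM in the other cells. For comparison it was 552 CPM among T/NK-like cells and 677 CPM in the non-members of the cluster that held most pair-rich cells. The median log2 ratio of the list was 3.87, beside -0.85 for all genes compared. The markers *JCHAIN*, *XBP1*, *SDC1*, *CD38*, *FCRL5*, *TXNDC5* and *FKBP11* matched no row by symbol and were not analysed under these names. No value is therefore given here for the joining chain, which a test of plasma cells asks for. A missing symbol does not show that a row for it is absent. Among the secretory members of the list, *DERL3*, which moves misfolded proteins out of the endoplasmic reticulum, was at 573 CPM (494 to 662) against 25.8 CPM. *SEC11C*, a catalytic subunit of the signal peptidase, was at 1226 CPM (1109 to 1353) against 82.9 CPM. *TXNDC11* (182 against 43.7 CPM), *TRAM2* (49.3 against 4.75 CPM) and *CREB3L2* (67.8 against 16.9 CPM) were higher by log2 ratios of 2.03, 3.13 and 1.94.

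The transcription regulators of plasma cells were present at lower counts. *PRDM1*, the repressor that ends the B cell programme, had 105 UMIs in 25 pair-rich cells and was at 324 CPM (265 to 392) against 74.2 CPM, with 200.1 CPM in the other cells of the cluster that held most pair-rich cells. *POU2AF1*, a B lineage coactivator, had 12 UMIs in 10 cells and was at 37.0 CPM (19.1 to 64.6) against 0.166 CPM. *IRF4* had 10 UMIs in 8 cells (8.99%), too few cells for a call, at 30.8 CPM (14.8 to 56.7) against 0.962 CPM. *ELL2*, an elongation factor that favours the secreted form of the heavy chain, was at 176 CPM (133 to 228) against 44.4 CPM. The nearer groups were at like levels, 154 CPM in T/NK-like cells and 159 CPM in the other cells of the cluster that held most pair-rich cells. Its partner *EAF2* was at 219 against 5.48 CPM, with 0.740 CPM in T/NK-like cells and 12.1 CPM in the same cluster. *PIM2*, a survival kinase, was at 52.4 CPM (30.5 to 83.9) against 17.1 CPM, but T/NK-like cells stood at 70.7 CPM. *TENT5C*, which extends the tails of secretory messenger RNAs, had 10 UMIs and was at 30.8 against 7.38 CPM and 21.1 CPM in T/NK-like cells, in too few cells for a call.

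Surface markers of the list were high as well. *SLAMF7* was at 274 CPM (220 to 338) against 14.3 CPM, but T/NK-like cells, in which it is also expressed, stood at 87.3 CPM. *CD27*, a memory and plasma cell receptor that T cells share, was at 142 CPM (104 to 189) against 5.67 CPM. *TNFRSF17*, the receptor through which plasma cells take up survival signals, had 17 UMIs in 11 cells and was at 52.4 CPM (30.5 to 83.9) against 1.13 CPM. *SPAG4*, a nuclear envelope gene that is also active in spermatids, had 1 UMI and was the only listed gene with a lower level, at 3.08 CPM (0.0780 to 17.2) against 15.9 CPM.

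**Figure D3:**
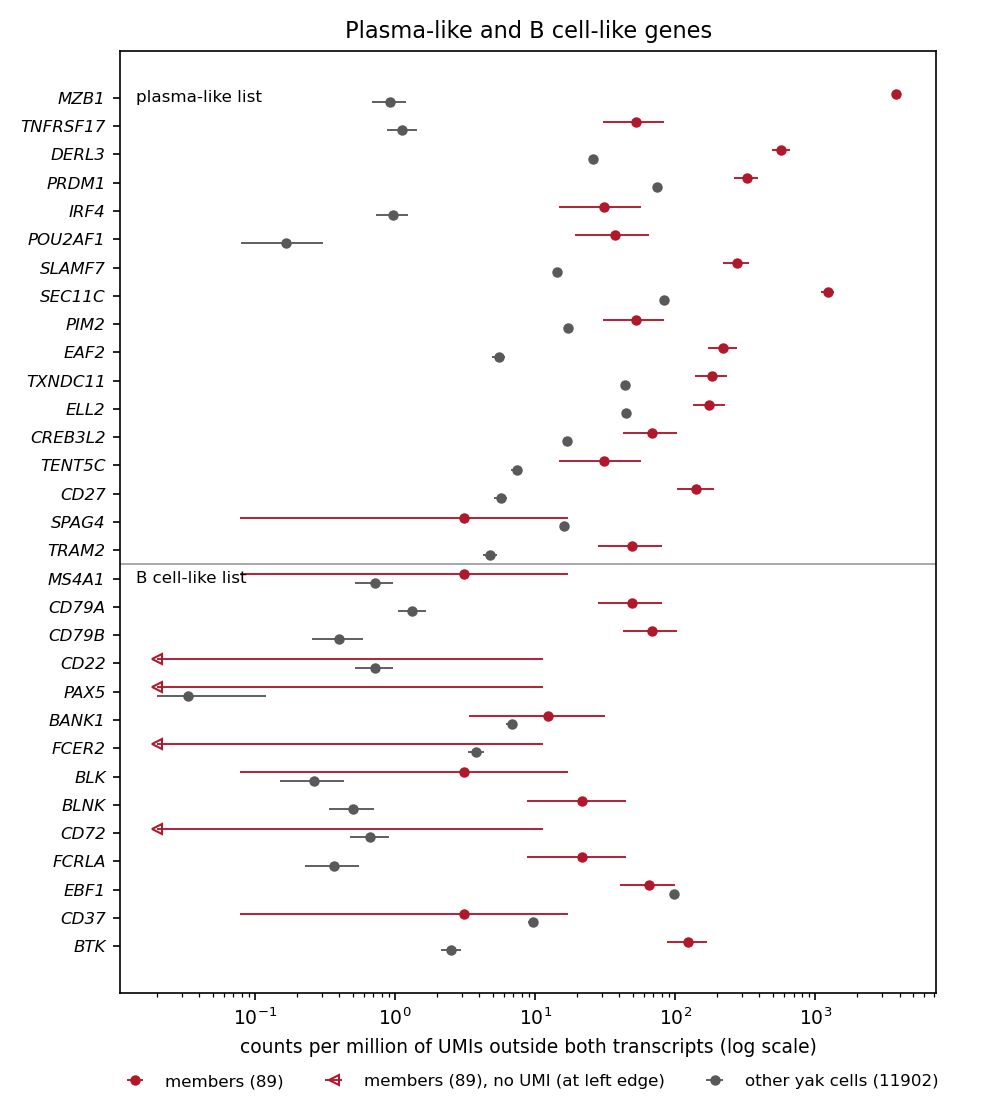
Level of the plasma-like and 14 of the B cell-like genes (CPM, log scale) in the 89 pair-rich cells (members in the key) and in the 11902 other yak cells, with exact Poisson 95% intervals; open arrows at the left edge mark genes with no UMI in the pair-rich cells. All plasma-like genes except *SPAG4* lie to the right of the other cells, whereas the intervals of *MS4A1*, *CD37*, *BANK1*, *BLK* and *EBF1* span the level of the other cells and 4 B cell-like genes had no UMI.

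Of the 18 B cell markers, 15 were matched, 3 were higher and 0 were lower (6.42% and 43.0% of all compared genes), with a summed level of 376 CPM against 134 CPM. The 3 were components of B cell receptor signalling. *CD79A* had 16 UMIs in 13 cells (49.3 against 1.33 CPM), *CD79B* had 22 UMIs in 16 cells (67.8 against 0.398 CPM) and the kinase *BTK* had 40 UMIs in 23 cells (123 against 2.51 CPM). *BLNK* (21.6 against 0.498 CPM) and *FCRLA* (21.6 against 0.365 CPM) had 7 UMIs each, in 7 and 3 cells, and were below the limit for a call. *PAX5*, *CD22*, *CD72* and *FCER2*, which mark B cells before the plasma cell stage, had 0 UMIs among 324509, so that a level of up to 9.24 CPM remained possible (3 counts of that total). *MS4A1* had 1 UMI, *BLK* 1, *CD37* 1 and *BANK1* 4. *EBF1*, which stromal cells express as well, was at 64.7 against 98.9 CPM. In the other cells of the cluster that held most pair-rich cells, *MS4A1* stood at 35.2 CPM and *BANK1* at 136 CPM, above the pair-rich cells (3.08 and 12.3 CPM). *BTK* (93.4 CPM), *BLNK* (27.5 CPM) and *FCRLA* (18.7 CPM) lay within the intervals of the pair-rich cells there, whereas *CD79A* and *CD79B* were lower, at 12.1 CPM each.

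The secretory pathway list held genes of protein import, folding, glycosylation and transport. Of 60 genes 50 were matched, and 27 were higher and 0 were lower (6.42% and 43.0% of all compared genes), with a median log2 ratio of 1.33 and a summed level of 22468 CPM against 8072 CPM. On a scale of all UMIs the count dropped to 8 higher and 2 lower, beside 119 higher and 3231 lower of all 4471 genes. The chaperone *HSP90B1* (GRP94), which folds immunoglobulin chains, was at 3288 CPM (3094 to 3491) against 660 CPM. The proline isomerase *PPIB* was at 2589 CPM (2416 to 2770) against 773 CPM, and the chaperone *HSPA5* (BiP) at 2253 CPM (2092 to 2422) against 1039 CPM. For *HSPA5* the other cells of the cluster that held most pair-rich cells came close, at 2006 CPM, while *HSP90B1* and *PPIB* were at 907 and 888 CPM there. Genes of other steps were also higher. *LMAN1*, a cargo receptor on the way to the Golgi, was at 1122 CPM (1009 to 1243) against 134 CPM. *SPCS3*, another signal peptidase subunit, was at 875 CPM (776 to 983) against 95.9 CPM. *HERPUD1*, of the degradation machinery, was at 216 against 26.2 CPM. *EIF2AK3* (PERK), a sensor of unfolded protein, stood outside the list and was at 194 against 21.3 CPM.

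Some leading rows carried no symbol, but the gene descriptions that accompany the study give a protein for them. The row ENSBGRG00000020770 is described there as the delta subunit of the translocon-associated protein, which helps chains to enter the endoplasmic reticulum. It had 3036 UMIs in 85 of 89 pair-rich cells and was at 9356 against 746 CPM. The row ENSBGRG00000016429 is described as the precursor of thioredoxin domain-containing protein 5, an enzyme that forms disulphide bonds and the product of *TXNDC5*, a listed marker without a match by symbol. It had 661 UMIs in 69 cells and was at 2037 against 117 CPM. The row ENSBGRG00000018312 is described as X-box-binding protein 1, the product of *XBP1*, and it was chosen after its values were seen. It had 262 UMIs in 44 cells and was at 807 CPM (713 to 911) against 136 CPM, a log2 ratio of 2.56. By presence it was not particular to the pair-rich cells, since 4114 of the 11902 other yak cells had a UMI. No row is reported here for *JCHAIN*, *SDC1*, *CD38*, *FCRL5* or *FKBP11*. Among the 25 highest ratios were also *BFSP2*, *PDE4B*, *TRABD*, *CCNG1*, ENSBGRG00000000979 and ENSBGRG00000013804, at log2 ratios of 2.86 to 4.02.

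Further rows without a symbol or a description reached high levels, some in most of the cells and others in few. ENSBGRG00000020645 and ENSBGRG00000008925 had the highest ratios of all genes in the ranking (log2 11.09 and 11.04), ahead of *MZB1*. ENSBGRG00000020543, ENSBGRG00000020007, ENSBGRG00000009174 and ENSBGRG00000026512 followed it, at 10.94, 10.88, 10.10 and 9.93. ENSBGRG00000008925 was the most widespread, with 4820 UMIs in 80 of 89 cells (89.9%; lowest 0, median 12, highest 592 per cell). Its level was 14853 CPM (14437 to 15279) against 6.04 CPM in the other cells. ENSBGRG00000020007 had 5080 UMIs in 61 cells, with a median of 2 and a highest value of 584. ENSBGRG00000020645 had 2191 UMIs in 44 cells, but a single cell held 39.9% of them. For ENSBGRG00000026512 (2736 UMIs in 67 cells) a single cell also held 39.9%. ENSBGRG00000009174 (469 UMIs in 22 cells) and ENSBGRG00000020588 (302 UMIs in 7 cells) were carried by few cells. For these 2 the cell with most held 40.7% and 35.8% of the UMIs. ENSBGRG00000020543 had 1885 UMIs in 39 cells, of which 10 cells had at least 10 UMIs. Several of these rows had a median of 0 per cell, and whether they shared cells was not tested.

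Class II genes present antigen on B cells and macrophages. Of 13 listed genes only 5 were matched. Of these, 1 was higher and 0 were lower (6.42% and 43.0% of all compared genes), and the median log2 ratio was -0.67. *CD74*, the invariant chain, had a UMI in all 89 pair-rich cells (lowest 1, median 7, highest 265) and was at 8687 CPM (8369 to 9014) against 2065 CPM, a log2 ratio of 2.07. The other cells of the cluster that held most pair-rich cells stood higher still, at 26688 CPM, and T/NK-like cells at 509 CPM. *CIITA*, the master regulator of class II genes, had 2 UMIs, *CD40* had 3, and the costimulatory genes *CD80* and *CD86* had 0. Among 17 genes of homing and survival 2 were higher and 1 was lower, beside 6.42% and 43.0% of all compared genes. The higher ones were *TNFRSF17* (above) and *TNFRSF13B*, another receptor for B cell survival factors (36 UMIs in 18 cells, 111 against 0.830 CPM). *PECAM1* was the lower one, at 142 against 376 CPM. *CXCR4*, which holds plasma cells in their niches, was at 228 against 182 CPM but at 138 against 182 CPM on a scale of all UMIs. *CCR10* had 6 UMIs, and *S1PR1* and *BCL2* had 0.

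Markers of other cell types were then summed. The T/NK-like list, with 14 genes matched, summed to 265 CPM against 1248 CPM in all other yak cells, and 0 of its genes were higher and 5 lower, a share below the 43.0% of all compared genes that were lower. Among T/NK-like cells the same sum was 7971 CPM. *LCK*, *ZAP70*, *CD247*, *CD6*, *GZMA* and *PRF1* had 0 UMIs, its highest genes were *CCL5* (51 UMIs), *TRDC* (11) and *NKG7* (10), and 1 cell held 46 of the 86 UMIs of the list. The macrophage-like list summed to 24.7 CPM against 205 CPM, with *C1QB* and *CSF1R* at 2 UMIs each and *CD163*, *MSR1*, *C1QC* and *VSIG4* at 0. The germ-like list was at 129 against 1111 CPM, led by *ZPBP* (10 UMIs), *UCHL1* (8) and *ACRV1* (5). The proliferation list was at 83.2 against 643 CPM, with *CDK1* and *MCM5* at 0 and all 8 *TOP2A* UMIs in 1 cell.

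Transcripts of structural cells were present at more than trace levels. The muscle-like list summed to 2391 CPM against 5021 CPM, with *TAGLN* (379 UMIs), *MYH11* (161) and *ACTA2* (126) highest, and 1 deep cell with the first transcript only held 45.1% of the UMIs of the list. The endothelial-like list was at 354 against 1082 CPM, the stromal-like list at 441 against 1091 CPM, the pericyte-like list at 404 against 734 CPM and the lymphatic endothelial-like list at 231 against 370 CPM. Of the last 3 lists, 1 cell held 48.3%, 61.8% and 45.3% of the UMIs. Epithelial-like (21.6 against 189 CPM), Leydig-like (3.08 against 50.5 CPM), Sertoli-like (30.8 against 81.6 CPM), mast cell-like (9.24 against 30.4 CPM), dendritic-like (43.1 against 88.4 CPM) and neutrophil-like (43.1 against 67.2 CPM) lists had 1 to 14 UMIs each, and the erythroid-like list had 0. *TSACC*, *TUBA3D* and *YBX3*, at 37.0, 43.1 and 43.1 CPM against 622, 634 and 450 CPM, were among the 5 genes with the lowest ratios, with ENSBGRG00000010799 and ENSBGRG00000010611. The part that doublets or free RNA had in these levels was not tested.

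**Figure D4:**
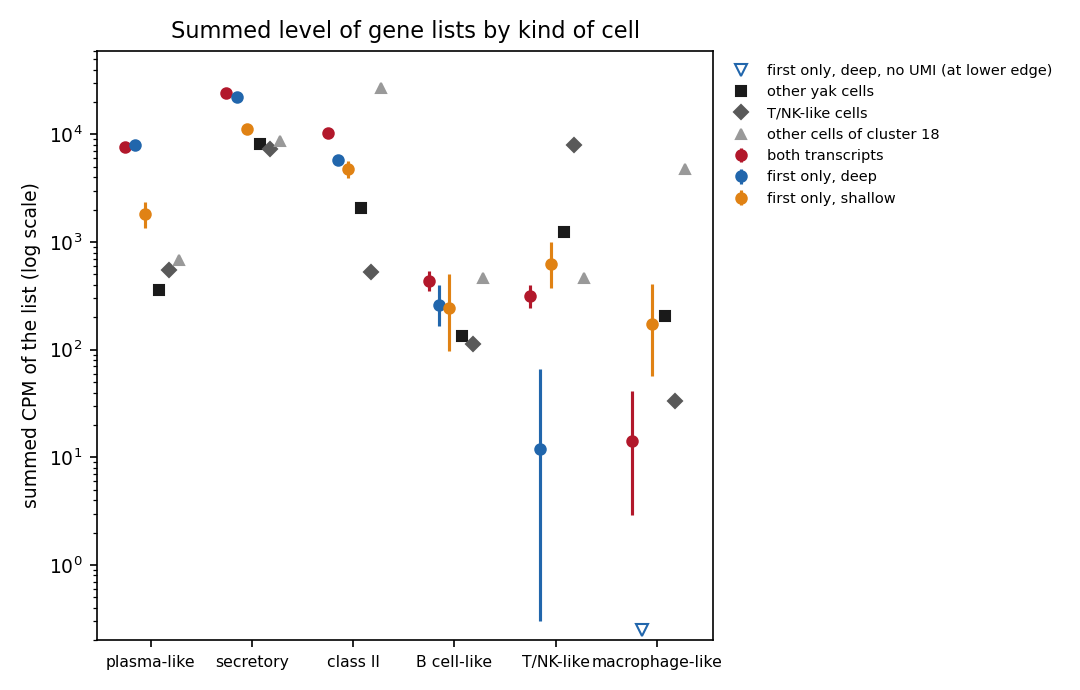
Summed level of 6 gene lists (CPM, log scale) in the 3 kinds of pair-rich cell, with exact Poisson 95% intervals, beside all other yak cells, T/NK-like cells and the other cells of the cluster that held most pair-rich cells; an open triangle at the lower edge marks a list with no UMI. The plasma-like list was at 7600 CPM in the cells with both transcripts, 8048 CPM in the deep cells with the first only and 1815 CPM in the shallow cells.

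The kinds of pair-rich cell differed in their plasma cell markers. In the 46 cells with both transcripts 16 of 17 plasma cell markers were higher than in the other yak cells (8.27% of all compared genes were), and the list summed to 7600 CPM (7233 to 7980). In the 8 deep cells with the first only 15 of 17 were higher (14.2% of compared genes), and the list summed to 8048 CPM (7452 to 8679). All 8 had *MZB1* (lowest 14, median 43, highest 112 UMIs), *DERL3* and *SEC11C*. Both kinds are therefore called plasma-like as groups, from summed levels, and the name does not type each cell. Of the 46 cells with both transcripts, 41 had *MZB1*, 36 had *SEC11C* and 31 had *DERL3*. The cluster that held most pair-rich cells held 39 of the 46 and 6 of the 8 deep cells. In the 35 shallow cells only 2 of 17 markers were higher and 1 was lower (3.22% and 41.7% of compared genes), and the list summed to 1815 CPM (1356 to 2380). Their median of 799 UMIs was low beside the library's 2533. It was also below 844, a depth that counted, together with the leading genes, in naming clusters. The shallow cells were left unnamed. *MZB1* was found in 8 of these 35 cells (22.9%; 10.4 to 40.1%), and 1 of them held 19 of the 26 UMIs. Of 5 lists of structural cells, 3 stood higher in the shallow cells than in the cells with both transcripts beyond counting error, with the lymphatic endothelial-like list at 1222 against 189 CPM, the stromal-like list at 1676 against 405 CPM and the muscle-like list at 4154 against 1146 CPM. The muscle-like list was highest in the deep cells, at 4943 CPM, mostly from 1 cell. The intervals overlapped for the endothelial-like list (524 against 349 CPM), the pericyte-like list (663 against 401 CPM) and the T/NK-like list (628 against 316 CPM).

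Between the cells with both transcripts and the 43 cells with the first only, 875 of 3198 compared genes (27.4%) differed by a log2 ratio of at least 1 either way, at median depths of 6168 and 925 UMIs. *IGHM* had the second lowest ratio, at 269 CPM (204 to 348) in the cells with both transcripts and 68569 CPM in the cells with the first only, a log2 ratio of -7.99. *IGHM* was not particular to these cells by presence alone, since 9.23% of the other yak cells and 20.5% of T/NK-like cells, which should lack it, had a UMI, against 38.2% of the pair-rich cells. Thinned to 1000 UMIs the shares were 4.81%, 12.1% and 22.4% (12.5 to 35.3%), but cells below that depth were left out. Among the cells with the first only, 27 had an *IGHM* UMI, and only 8 of these had at least 1000 UMIs. Thinned to 500 UMIs, the share of the pair-rich cells was 31.5%. Of the 46 cells with both transcripts 7 had an *IGHM* UMI, at most 13. In the deep cells with the first only, 1 cell held all 6480 *IGHM* UMIs, which was 33.9% of its 19092 UMIs, and the other 7 cells had 0 (up to 42.8 CPM remained possible). Without that cell *IGHM* stood at 4131 CPM (3908 to 4363) in the remaining 88 cells, a log2 ratio of 6.57 against the other yak cells, and the ratio between the kinds was -5.53. *MZB1* was at 3795 CPM (3537 to 4067) with both transcripts, in 41 of 46 cells. With the first only it was at 4669 CPM in the deep cells and 908 CPM in the shallow cells, so that the shallow cells stood apart. The rows ENSBGRG00000020588 (301 against 1 UMI), ENSBGRG00000008868 (416 against 5) and ENSBGRG00000020543 (1845 against 40) were highest in the cells with both transcripts. ENSBGRG00000008984 (0 against 50) and *TPM2*, a muscle tropomyosin (179 against 1459 CPM), were highest in those with the first only, but 1 deep cell held 41 of the 50 UMIs of ENSBGRG00000008984 and 1 cell held 111 of the 202 UMIs of *TPM2* (179 against 540.2 CPM without it).

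*IGHM* marked most of the shallow cells. It was found in 26 of the 35, with 16 to 116 UMIs each (median 38), and in 0 of the other 9, with no cell between. The 26 cells all carried ENSBGRG00000026512 (302 UMIs), 23 of them carried ENSBGRG00000020007 (80 UMIs) and 0 carried ENSBGRG00000008984. Of the 9 cells without *IGHM*, 0 carried ENSBGRG00000020007, 5 carried ENSBGRG00000008984 and all carried ENSBGRG00000008925 (48 UMIs). Per 100 UMIs of the first transcript the 26 cells with *IGHM* had 60.4 UMIs of *IGHM* (57.1 to 63.9), 14.9 of ENSBGRG00000026512 (13.2 to 16.6), 3.94 of ENSBGRG00000020007 (3.12 to 4.90) and 0.345 of the second transcript. In the deep cell with most *IGHM* the same ratios were 120, 20.2, 0.0370 and 0.0370. In the 11902 other yak cells they were 49.2, 8.90, 8.46 and 109. Cells with 1 to 5% of the pair that had little of the second transcript (28 cells) had 73.2 UMIs of *IGHM* and 13.0 of ENSBGRG00000026512, and 17 of them had *IGHM*. There 1 cell held 801 of the 1132 *IGHM* UMIs, and without it the ratios were 23.2 (20.7 to 25.8) and 11.8 (10.0 to 13.7). Whether the shallow cells are intact cells was not tested.

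**Figure D5:**
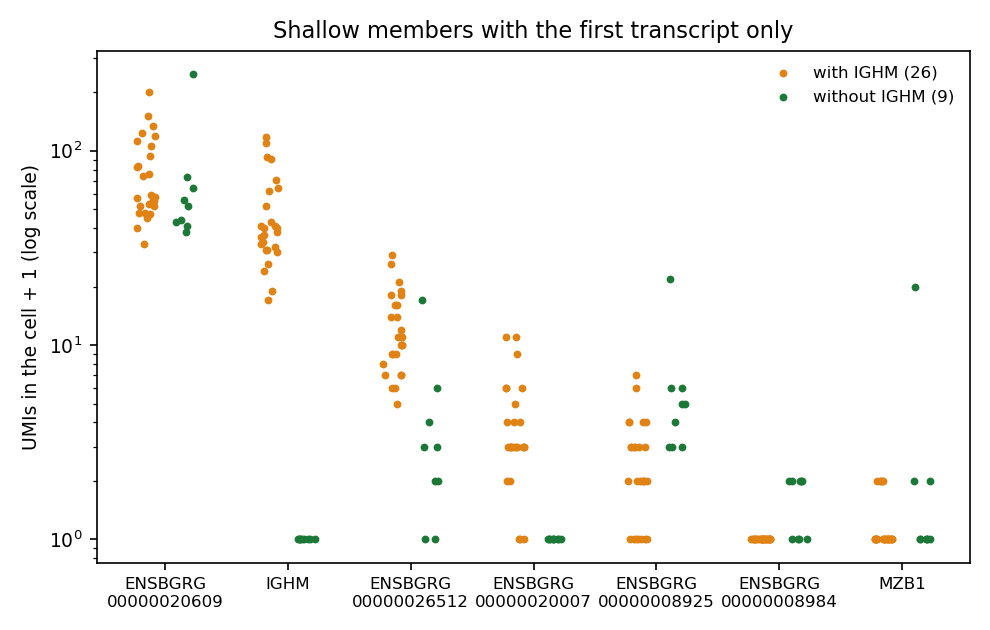
UMIs plus 1 (log scale) of the first transcript, *IGHM*, 4 unnamed rows and *MZB1* in each of the 35 shallow cells, drawn side by side for the 26 cells with *IGHM* and the 9 without (1 point per cell, spread sideways for visibility). ENSBGRG00000020007 was found only among the 26 cells with *IGHM*, and ENSBGRG00000008984 only among the 9 without it.

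The pair-rich cells were also divided by other measures. The 16 cells with more of the second transcript than of the first had more ENSBGRG00000009174 (4343 against 717 CPM), ENSBGRG00000008868 (3821 against 663 CPM) and *KMT2E* (875 against 359 CPM). For ENSBGRG00000008868 this rested on 1 cell with 210 of the 421 UMIs, without which the levels were 638 and 663 CPM. For ENSBGRG00000009174 a single cell held 191 of 469 UMIs, and without it the levels were 1499 and 717 CPM. For *KMT2E* a single cell held 19 of 150 UMIs. Without it the levels were 716 and 359 CPM, a log2 ratio of 0.996 and so just under the threshold of 1. The 16 cells had 0 UMIs of ENSBGRG00000020588 and ENSBGRG00000017959 and 6 of *IGHM*, where the 73 others had 302, 73 and 7758. All 16 were cells with both transcripts, whereas the 73 others included the 43 cells with the first only. Those 43 cells held 7707 of the 7758 *IGHM* UMIs, so for *IGHM* the contrast largely repeats the one between the kinds. In that division 1247 of 3375 genes (36.9%) differed. The 45 cells with at least 25% on the pair were higher than the 44 below it in ENSBGRG00000020588 (302 against 0 UMIs), ENSBGRG00000008868 (417 against 4) and ENSBGRG00000009174 (464 against 5). They were lower in the matrix and lipid genes *COL1A2* (1 against 51), *MGP* (5 against 136) and *APOE* (2 against 54). Here 1148 of 3182 genes (36.1%) differed, and *MZB1* was at 4695 against 1667 CPM. Between the deep and the shallow cells with the first only, 3593 of 6323 genes (56.8%) differed. *NUCB2*, a calcium-binding secretory protein (704 against 105 CPM), ENSBGRG00000020645 (1707 against 209 CPM) and ENSBGRG00000016148 (621 against 105 CPM) led in the deep cells. Without the cell that held most of each, ENSBGRG00000020645 was at 944 CPM and ENSBGRG00000016148 at 170 CPM in the deep cells. ENSBGRG00000021408 (4752 against 21817 CPM), ENSBGRG00000018450 (525 against 2374 CPM) and a mitochondrial ribosomal RNA row (7725 against 28833 CPM) led in the shallow cells.

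To see whether the cells grouped by genes that the rule did not read, all yak cells were clustered without the pair. Of 20 clusters, cluster 18 (334 cells) held 59 of the 89 pair-rich cells (66.3%; 55.5 to 76.0%), namely 39 cells with both transcripts, 6 deep and 14 shallow cells. Its leading genes were the macrophage genes *C1QA*, *C1QB* and *C1QC*, which had at most 2 UMIs each in the pair-rich cells, and it was left unnamed. A further 18 shallow cells fell into cluster 10 (977 cells, median 957 UMIs), which was also unnamed. The remaining 12 were scattered over 9 clusters, of which 1 cell each fell into a T/NK-like, a lymphatic endothelial-like and a germ-like cluster. When cluster 18 was clustered again, 44 pair-rich cells (38 with both transcripts, 5 deep and 1 shallow) formed a part of 44 cells without any other cell. In that part 41 cells had *MZB1* and 0 had *C1QA*. Another 14 pair-rich cells (13 shallow and 1 deep) formed a second part without any other cell, led by *IGHM*. The last was alone among 49 other cells. Against the 30 pair-rich cells elsewhere, the 59 in cluster 18 were higher in *MZB1* (4881 against 1146 CPM), ENSBGRG00000008868 (420 against 1 UMI), ENSBGRG00000020588 (302 against 0) and ENSBGRG00000013804 (71 against 5). They were lower in *AKAP12* (2 against 68), *COL1A2* (2 against 50) and *TIMP3* (2 against 50), and 50.2% of 3952 genes differed.

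Across the 20 clusters with the pair-rich cells taken out, the first transcript ranged from 18.04 to 1075 CPM (median 57.1) and the second from 32.9 to 343 CPM (median 68.8), against 397946 and 249978 CPM in the pair-rich cells. The highest values were those of the other 275 cells of cluster 18, at 1075 and 343 CPM. In cluster 17 (136 cells, median 30477 UMIs, unnamed) the second transcript made up 94.99% of the pair, at 342 CPM against 18.04 CPM for the first. The 10 genes whose levels over the 20 clusters and the pair-rich cells were most like the pair had Pearson r of 0.931 to 0.974 on the log2 scale (21 groups of 1 library). They were ENSBGRG00000020543, ENSBGRG00000008925, ENSBGRG00000020007, *VPREB3*, *MZB1*, ENSBGRG00000026512, ENSBGRG00000020588, ENSBGRG00000009174, ENSBGRG00000020645 and ENSBGRG00000008984. The pair-rich cells themselves are 1 of the 21 points, and over the 20 clusters alone the same genes had r of 0.378 (ENSBGRG00000008984) to 0.844 (ENSBGRG00000020543).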

How the data were processed

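The UMI counts per gene and cell were deposited by the authors as 10× matrices, 1 per library, which had been filtered to cells and were neither normalized nor pooled. Per the labels and headers, Cell Ranger was used, but its version is given as 2.1.1 in the submitters' processing notes, 5.0.0 in the matrix headers and 4.0 in the paper's methods, which name the yak genome BosGru3.0. The annotation has 26961 rows, of which 15722 carry a symbol, and sequence of the transcripts was not analysed here. The 5% rule, the gene lists and the named genes were chosen with earlier results of these data known. Counts were summed per group of cells and divided by the UMIs outside both transcripts. Poisson and binomial 95% intervals were exact. The named genes were all matched plasma-like, B cell-like and class II genes, the 3 highest genes of other lists, the 25 largest and 5 smallest ratios (at least 50 counts, a UMI in 20% of cells), the 10 most alike and 3 per side of each division. A few listed genes count in their lists but are not reported here by name. Any other gene named was chosen after its values were seen, as were the 3 kinds of cell. Clusters came from scanpy 1.11.5 (2000 variable genes, 30 components, 15 neighbours, resolution 1), and a cluster needed 3 or more listed markers for a name. That number alone was not enough, since clusters 6, 15, 17 and 18 reached it and were left unnamed. No doublet caller was run. The ratio was tested on simulated data for the pair-rich cells against the other yak cells (26959 genes). Of 100 genes raised 4-fold and 100 lowered 4-fold it called 100% and 99.0%, and it called 156 of 20833 unchanged genes. The simulation drew independent counts from 1 common profile, for only a part of the other cells. No simulated gene was concentrated in 1 cell by design, and the changed genes were picked among well-counted ones. Many unchanged genes were too rare for any call. These rates therefore do not carry over to the real cells. With 1 animal per library no p-value was computed. Alternatives changed the threshold, depth, scaling, cells, clustering and thinning.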

Additional observations from a re-analysis of the deposited data

Results flagged for a closer look

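The cattle-yak library, in which no cell reached the 5% rule, still carried both transcripts. It held 63 UMIs of ENSBGRG00000020609 in 27 of 8930 cells, or 1.44 CPM of all its UMIs (1.11 to 1.84), and 10 UMIs of ENSBGRG00000008342, or 0.228 CPM (0.110 to 0.420). Both lie above the 0.0685 CPM that a count of 0 would allow (3 counts of 43774841). On the same scale of all UMIs the yak cells outside the pair-rich cells had 86.1 and 93.6 CPM. The highest share of the pair in a cattle-yak cell was 0.468%. *MZB1* had 21 UMIs in 18 cattle-yak cells and *IGHM* had 246 UMIs. The difference between the libraries is a difference between 2 animals with 1 library each, and it was not tested.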

How the results depend on the processing

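The number of pair-rich cells was 57 at a threshold of 10%, 45 at 20%, 58 among cells with at least 1000 UMIs and 46 when each transcript had to reach 1%; a threshold of 2% gave 114 and the quality limits 85. Genes called higher and lower were 119 and 3231 on a scale of all UMIs, 89 and 525 at a log2 ratio of at least 2, and 145 and 414 with a UMI in 25% of cells. The median of all genes moved by -0.70 between the scales. On the scale of all UMIs the summed log2 ratios were 3.60 (plasma-like), 0.77 (B cell-like), 0.76 (secretory), -2.96 (T/NK-like) and 1.34 (class II), and with every cell weighted equally 3.68, 0.91, 1.23, -2.78 and 1.91. Class II, a sum carried almost wholly by *CD74*, was at 1.95 within the quality limits. The plasma-like, secretory and class II lists were at 4.44, 1.57 and 2.13 above 10%, at 4.62, 1.67 and 2.32 above 20%, at 4.65, 1.72 and 2.33 in cluster 18 only (T/NK-like -3.57), and at 4.42, 1.54 and 2.12 without the shallow cells. Without the 5 cells over 21000 UMIs the secretory, T/NK-like and class II lists were at 1.44, -1.90 and 1.90. *MZB1* was found in 41.6% of the cells thinned to 500 UMIs, against 67.2% at 1000. Thinned to 500 UMIs outside the pair, it was found in 48.3%. *IGHM* was found in 38.2% unthinned, against 22.4% thinned to 1000 UMIs, a setting that left out the cells below that depth. Without the cell with most *IGHM* the *IGHM* ratio between cells with both transcripts and those with the first only was -5.53. With every cell weighted equally *SLAMF7* was at 2.71, *CD79A* at 2.98, *CD79B* at 4.36 and *IGHM* at 7.65 (4.17, 4.43, 5.62 and 9.11 as reported). Without the cell that held most of its UMIs, the ratio of *FCRLA* was 2.43 (4.05), and *BANK1*, *BLK* and *MS4A1*, with 4 UMIs or fewer, went below 0. None of the followed list sums and 9 single genes changed sign. Counts and shares of cells have no sign to change, and several of them moved with the setting, as given above. Of all 243 listed and named genes, 16 changed direction on the scale of all UMIs, among them *CXCR4*, and 0 of the 16 had been called. The settings that leave out shallow cells, deep cells, the *IGHM* cell or the cell with most of a gene, the one that asks for 1% of each transcript, and the second clustering were chosen after seeing the data. No paired analysis was possible because each group is 1 library. Depth is 1 limit beside the single animal: at 324509 UMIs outside the pair, genes under 9.24 CPM could go undetected in the pair-rich cells as a whole, and in the shallow cells 1 UMI was worth 34.9 CPM.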
